A study of Rattus norvegicus with 132 samples.

Results

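Ndrg1, Aldoa, Pgk1 and Hk1 are 4 genes tied to oxygen shortage and to the breakdown of glucose. They were taken by name, as the 4 rows of that name, from a table of 9271 genes measured in 132 regions of interest (ROIs) of rat kidney. An ROI is a small area of a tissue section that can hold several cell types. In an ROI, fewer cells of a type and less RNA per cell cannot be told apart.

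The study profiled kidneys in rat models of acute kidney injury after trauma, with 3 animals per group. The groups are uninjured controls (Sham), RM alone, HS alone, and both injuries (RM-HS). Neither abbreviation is expanded in the labels: in trauma research RM usually means rhabdomyolysis, in which damaged muscle releases its contents, and HS hemorrhagic shock, or loss of blood. The labels give no strain, age, sex, dose or time after injury, and name no agent that all groups share. ROIs were picked by hand in cortex (C), corticomedullary junction (CMJ), glomeruli (G) and medulla (M). Sham had 9 ROIs in each area. In the order just given, the RM areas held 9, 8, 9 and 9 ROIs, those of HS 9, 9, 5 and 6, and those of RM-HS 9, 8, 6 and 9. The probes were those of the mouse whole-transcriptome set, hybridised to fixed, paraffin-embedded rat tissue, so levels of different genes cannot be set against each other.

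When oxygen runs short, hydroxylases stop marking the alpha subunits of the hypoxia-inducible factors (HIF) for destruction, and HIF switches on genes of glucose uptake, glycolysis and adaptation. Hexokinase 1 (Hk1) carries out the first step of glycolysis, and aldolase A (Aldoa) splits the 6-carbon sugar. Phosphoglycerate kinase 1 (Pgk1) carries out the first step that yields ATP, and Ndrg1 is a stress-response gene widely used as a marker of hypoxia. The proximal tubule of the kidney depends on oxidative metabolism, and the medulla works at low oxygen and relies more on glycolysis.

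The letters ACGTG or GCGTG form the core of the hypoxia response element to which HIF binds. RefSeq promoter windows (assembly GRCr8, 250 bases before to 50 after a start site) were searched on both strands for these cores. Aldoa had 3 windows and Hk1 had 2. Ndrg1 and Pgk1 had none. The windows that held a core are shown so that its place can be seen, with the core in capitals, on the minus strand at chr1:190836728-190837027 for Aldoa and at chr20:30842023-30842322 for Hk1.
Aldoa: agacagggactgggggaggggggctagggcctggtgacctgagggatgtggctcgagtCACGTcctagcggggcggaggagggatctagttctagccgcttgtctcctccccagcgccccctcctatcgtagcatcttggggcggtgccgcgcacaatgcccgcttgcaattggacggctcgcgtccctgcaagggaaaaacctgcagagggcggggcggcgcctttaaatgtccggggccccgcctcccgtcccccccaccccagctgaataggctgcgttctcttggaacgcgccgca
Hk1: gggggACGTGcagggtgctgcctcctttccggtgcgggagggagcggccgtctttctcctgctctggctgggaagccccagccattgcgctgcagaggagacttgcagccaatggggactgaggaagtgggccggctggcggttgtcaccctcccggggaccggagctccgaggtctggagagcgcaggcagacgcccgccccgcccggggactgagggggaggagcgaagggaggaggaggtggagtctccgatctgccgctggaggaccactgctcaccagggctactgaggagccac
The Aldoa window held 1 core, read on the reverse strand as ACGTG, and the Hk1 window held 1 ACGTG. The other 2 windows of Aldoa and the other window of Hk1 held none. Of all 33469 promoter windows of that length, 13937 (41.6%) held at least 1 such core, as did 58.9% of the 7296 windows of genes tested here, and a palindrome that reads ACGTG on both strands counted on each. A core in these genes is therefore common, and a match is a run of letters, not a binding site.

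Values are the authors' signal after scaling each ROI to 1 common upper quartile (Q3). Recovered reads ran from 17895 to 2306058 per ROI, with a median of 93106 in glomeruli and 1309764 in medulla. Background was read from the negative probe, which matches no transcript and had a median of 17.1 in glomeruli and 27.3 in cortex. Aldoa and Pgk1 stood over 2 times the negative probe in all 132 ROIs, Hk1 in 107 and Ndrg1 in 63. No value in the table was 0. Ndrg1 was thus near background in much of the kidney: its median was 0.906 times the negative probe in Sham glomeruli, 1.25 times in Sham medulla and 1.45 times in Sham cortex and at the Sham junction, where 3 and 2 of 9 ROIs stood over 2 times. Its fold changes are therefore set against Sham levels near background in every area. Area labels fitted their markers: 6 podocyte genes summed to 436 to 1271 in glomeruli (medians of well runs) and to 182 to 264 in cortex, and 7 proximal tubule genes to 651 to 3386 in cortex and to 207 to 276 in medulla. ROIs came in 12 runs of consecutive wells, 3 per group, which the labels do not tie to animals. Every HS ROI lay on plate E with 1 Sham run (Sham 3), while RM and RM-HS lay on plate C, apart from 1 RM glomerular ROI on plate A that the fit leaves out.

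**Figure D1:**
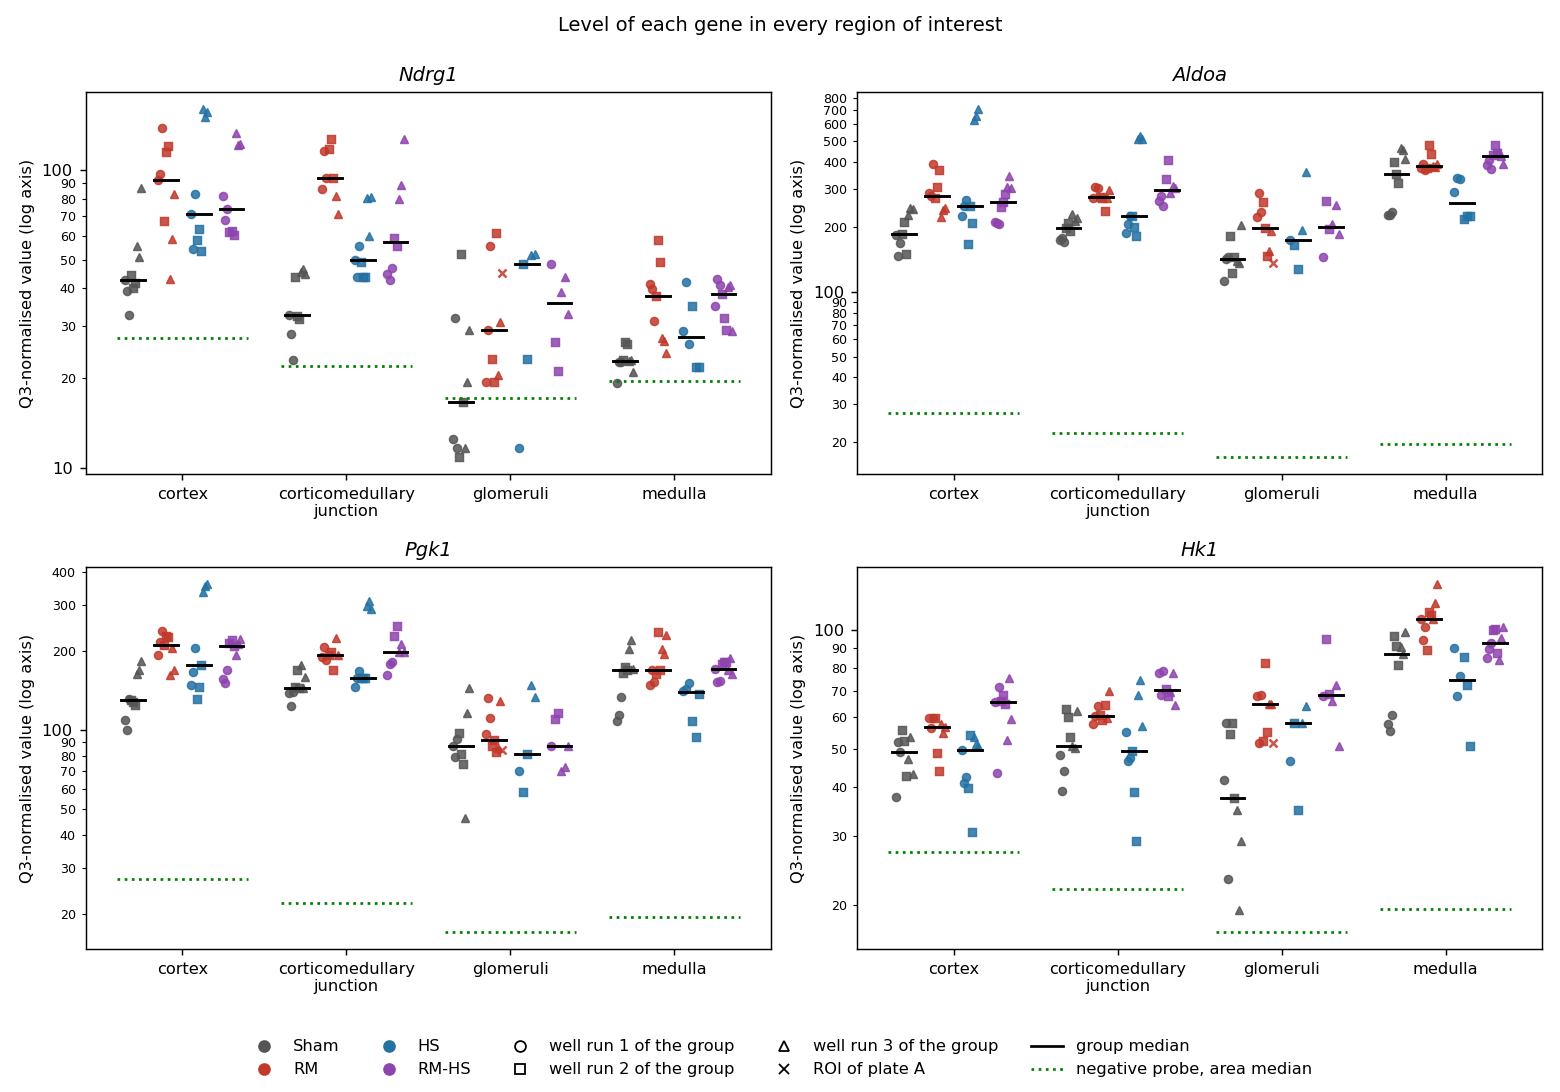
Level of each gene in every ROI by area (horizontal axis) and group (colour), as Q3-normalised value on a log axis, with point shapes for the well runs, black bars for group medians and dotted green lines for the negative-probe median of the area. Ndrg1 lies near the dotted line in Sham glomeruli and medulla, Aldoa and Pgk1 lie far above it everywhere, and the 3 highest HS cortex points of Ndrg1, Aldoa and Pgk1 are the triangles of well run HS 3.

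In uninjured kidney the 3 glycolytic genes and Ndrg1 were distributed differently. Ndrg1 was highest in Sham cortex (lowest, median and highest ROI 32.7, 42.8 and 86.9), lower at the junction (22.9, 32.6 and 46.5) and lowest in medulla (19.2, 22.9 and 26.5) and glomeruli (10.9, 16.6 and 52.3). Cortex and medulla did not overlap. Aldoa ran the other way, from 112, 143 and 204 in glomeruli through 146, 185 and 244 in cortex and 171, 199 and 230 at the junction to 226, 355 and 465 in medulla. The medulla split by run, with means of 230 in Sham 1, 359 in Sham 2 and 445 in Sham 3, so Sham 1 medulla lay at the upper end of the cortex range. Hk1 had its highest median in medulla too (55.4, 86.7 and 98.7), above cortex (37.6, 49.0 and 55.8), the junction (38.9, 50.8 and 63.0) and glomeruli (19.4, 37.4 and 58.2). Its medulla split by run as well, with means of 58.0 in Sham 1, 89.8 in Sham 2 and 92.1 in Sham 3. The Sham 1 medulla ROIs of Hk1 lay within the junction range. Pgk1 was lowest in glomeruli (46.5, 87.2 and 145) and overlapped across cortex (101, 131 and 183), junction (124, 145 and 178) and medulla (109, 170 and 220).

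These differences were tested in limma over all 8799 genes that passed a filter on low values, with Benjamini-Hochberg adjustment and a threshold of 0.05, and a gene past it is called. All 4 genes passed that filter. Several ROIs of a group share an animal, so these p-values, and all those that follow, are too small. In medulla against cortex, Aldoa was higher by 0.79 on the log2 scale (SE 0.14, adjusted p = 2.25e-06) and Hk1 by 0.70 (SE 0.12), while Ndrg1 fell by 0.99 (SE 0.19, adjusted p = 4.49e-05) and Pgk1 differed by 0.22 (adjusted p = 0.281). That made 3 of 4 genes called, against 11.6% of all genes. Against the junction the medulla gave 0.75 for Aldoa, 0.59 for Hk1 and -0.61 for Ndrg1, again 3 of 4 called against 10.7%. All 4 were lower in glomeruli than in cortex, by -1.26 for Ndrg1, -0.62 for Pgk1, -0.40 for Aldoa and -0.35 for Hk1, but 38.2% of all genes were called there and the median gene stood at -0.27. Without Sham 3 the glomerular calls of Aldoa (-0.30) and Hk1 (-0.13) and the call of Ndrg1 between medulla and junction (-0.41) were lost, and the last was lost without Sham 2 as well (-0.67). None of the 4 was called between junction and cortex (7.93% of all genes were), and none of them had an unadjusted p under 0.05 there. Junction and glomeruli were not tested against each other.

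Averaged over the 4 areas, all 4 genes were higher in RM than in Sham. Ndrg1 rose most, 1.94-fold (log2 0.96, SE 0.18, adjusted p = 2.3e-05), followed by Aldoa at 1.49-fold (log2 0.58, SE 0.13, adjusted p = 0.000338), Pgk1 at 1.37-fold (log2 0.45, SE 0.12, adjusted p = 0.00361) and Hk1 at 1.32-fold (log2 0.40, SE 0.12, adjusted p = 0.0144). Of all genes, 7.55% were called upward, and the median gene stood at -0.06. Within plate C alone, which holds all RM ROIs of the fit and Sham 1 and 2, the averages were 0.96, 0.58, 0.45 and 0.40, all called. The plate term already sets the RM average against Sham 1 and 2, so near-identical values were bound to result and add no support. The calls in single areas were those of Ndrg1 and Pgk1 in cortex and at the junction, of Aldoa in these and in glomeruli, and of Hk1 in glomeruli, and for none of the 4 was a difference between areas called (F test, adjusted p from 0.095 to 0.765). In single areas, 3 of 4 were called upward for cortex (5.28% of all genes), 3 for the junction (4.88%), 2 for glomeruli (10.1%) and 0 for medulla (4.85%). In medulla limma gave 3 of the 4 an unadjusted p under 0.05, as it did 1164 of all 8799 genes. On plate C alone it called Aldoa (log2 0.47), Hk1 (0.56) and Pgk1 (0.37) there. That setting called 2546 genes in the RM average, against 733 in the main fit. Most of the 8 single-area calls depended on the setting. With 1 mean per well run and area 6 were lost, and those of Ndrg1 at the junction and Hk1 in glomeruli were kept. With a spread of its own for each area 5 were lost, those of Aldoa, that of Pgk1 at the junction and that of Hk1. All 4 genes were called in medulla in that setting (0.61 for Ndrg1, 0.47 for Aldoa, 0.37 for Pgk1 and 0.56 for Hk1). The shares of all genes called in medulla on plate C alone and with a spread for each area are not given here. These medulla counts therefore cannot be set against all genes. With every ROI set to the same distribution of values (quantile normalisation) 5 were lost, those of Aldoa and Pgk1.

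**Figure D2:**
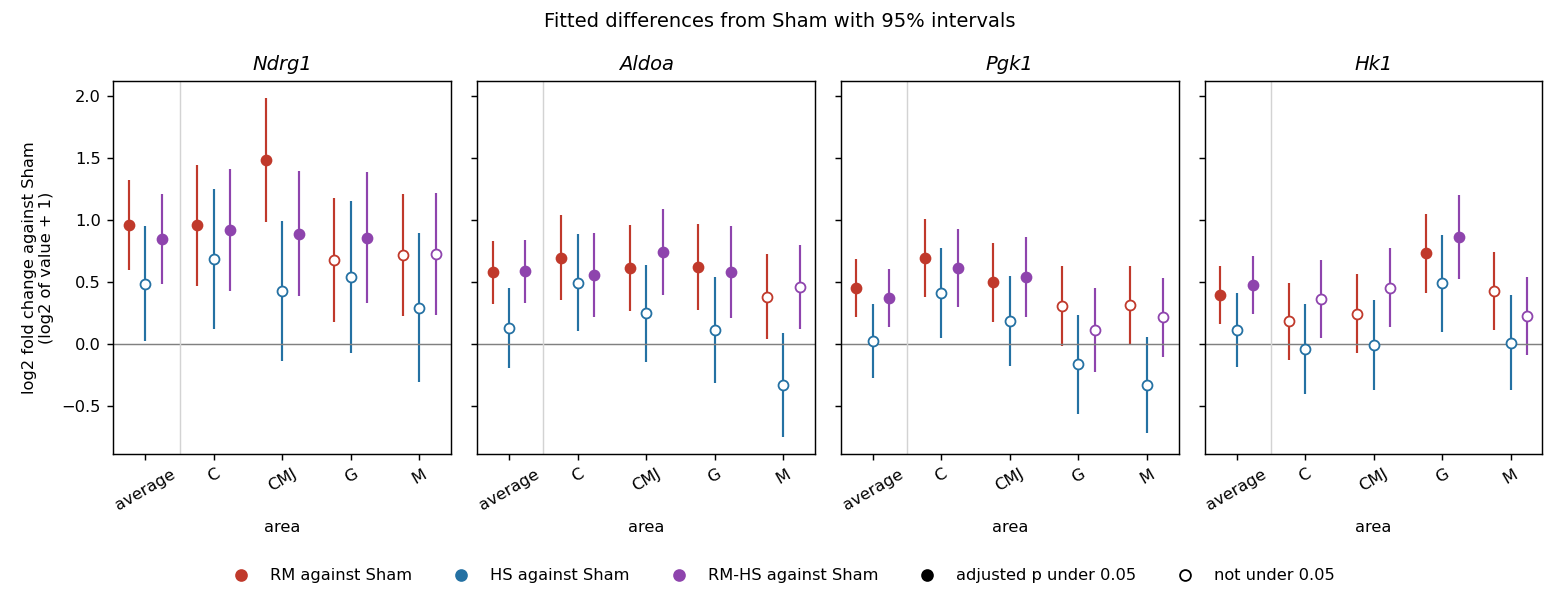
Log2 fold change of each gene against Sham, as the average of the areas and in each area, with 95% intervals from the fit and filled points where the adjusted p was under 0.05. All points of RM and of RM-HS lie above 0, with Ndrg1 at the junction in RM the highest at 1.48, and no HS point is filled.

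Ndrg1 showed the largest single change, at the corticomedullary junction. There the RM ROIs read 71.2, 93.9 and 127 (lowest, median and highest) against 22.9, 32.6 and 46.5 in Sham. All 8 RM ROIs stood above the highest Sham ROI, and all 3 RM runs above every Sham run. The rise was 2.80-fold (log2 1.48, SE 0.25, adjusted p = 2.79e-06), over a Sham level of 1.45 times the negative probe. In cortex the RM values were 43.1, 92.3 and 138, with 5 of 9 above the highest Sham ROI of 86.9, and the rise was 1.94-fold (log2 0.96, adjusted p = 0.00534). Well run RM 3 was the low one, with a cortex mean of 61.6 against 109 in RM 1 and 101 in RM 2. The cortex call was lost without RM 1 (log2 0.79, adjusted p = 0.121), RM 2 (0.86, 0.0622) or Sham 1 (0.80, 0.294) and with run means (0.96, 0.316), whereas the junction call and the average were kept without any single run.

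In RM glomeruli Ndrg1 read 19.4, 29.1 and 61.2, overlapping with Sham, and in RM medulla 24.4, 37.8 and 58.2, where 8 of 9 ROIs exceeded the highest Sham value of 26.5. The fitted log2 differences were 0.68 (adjusted p = 0.0594) and 0.72 (adjusted p = 0.0674). Both sit just outside the threshold, and both rest on levels close to background, 1.68 and 1.65 times the negative probe. Each was called in the fit without HS 2 or HS 3 (glomeruli 0.0435 and 0.0138, medulla 0.0495 and 0.0148), glomeruli also without HS 1 (0.0495) or Sham 2 (0.04), and medulla without RM 3 (0.0272), these being adjusted p-values. With quantile normalisation the RM medulla value was 0.85 and called. The other members of its family, Ndrg2 (0.20), Ndrg3 (-0.25) and Ndrg4 (-0.13), were not called in the RM average.

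Aldoa was called in 3 areas of RM kidney. At the junction its values were 237, 275 and 306 against 171, 199 and 230 in Sham, without overlap (log2 0.61, SE 0.18, adjusted p = 0.0155). In cortex it read 223, 280 and 391 against 146, 185 and 244, with 7 of 9 ROIs above the Sham range (log2 0.70, adjusted p = 0.003), and in glomeruli 136, 199 and 288 against 112, 143 and 204 (log2 0.62, adjusted p = 0.00889). All 34 RM ROIs of the fit lay above the Sham mean of their area. In medulla the values were 369, 384 and 480 against 226, 355 and 465, so that 1 of 9 RM ROIs exceeded the highest Sham ROI, and the difference of 0.38 was not called (adjusted p = 0.268; called without HS 3, 0.0239). The average call was lost without Sham 1 (log2 0.44, adjusted p = 0.198). So were the calls in cortex (0.58), junction (0.51) and glomeruli (0.55). The cortex and glomerular calls were also lost without RM 1 (0.62 and 0.47), and the junction call without RM 1 (0.57), RM 3 (0.61) or Sham 3 (0.57). With quantile normalisation the differences were -0.04 in cortex, 0.10 at the junction and 0.19 in glomeruli, none called. None of the 3 was called with run means (adjusted p = 0.536, 0.553 and 0.288) or with a spread for each area (0.0595, 0.0669 and 0.324) either.

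Pgk1 was called in cortex and at the junction of RM kidney. In cortex it read 163, 211 and 238 against 101, 131 and 183 in Sham, with 7 of 9 ROIs and all 3 run means above every Sham ROI or run (log2 0.70, SE 0.16, adjusted p = 0.00104). At the junction it read 170, 194 and 225 against 124, 145 and 178, and 7 of 8 ROIs exceeded the Sham range (log2 0.50, adjusted p = 0.049). Glomeruli (82.6, 92.1 and 133 against 46.5, 87.2 and 145) and medulla (149, 170 and 238 against 109, 170 and 220) overlapped widely with Sham, and neither was called. The average was lost without Sham 1 (log2 0.35, adjusted p = 0.38), as was the cortex call (0.57, 0.171). Neither area was called with quantile normalisation (0.07 and 0.04) or with run means (adjusted p = 0.307 and 0.585), nor the junction with a spread for each area (0.0969). The junction call, close to the threshold, was lost without any 1 of RM 1, RM 2, RM 3, RM-HS 1, RM-HS 2, RM-HS 3, Sham 1, Sham 2 or Sham 3, with log2 values of 0.50, 0.53, 0.46, 0.50, 0.50, 0.50, 0.42, 0.62 and 0.45.

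Hk1 was called in glomeruli, and not in cortex or at the junction. RM glomeruli read 51.7, 65.0 and 82.4 against 19.4, 37.4 and 58.2 in Sham, and 5 of 8 ROIs in the fit lay above the Sham range (log2 0.73, SE 0.16, adjusted p = 0.000537). That call was kept without any single run, but lost where each area was given a spread of its own (0.52, adjusted p = 0.527). Summed markers of glomerular cell types had higher medians in RM glomeruli too. Of 4 endothelium genes 2 were called upward there, beside 10.1% of all genes. Their sum had a median of 391.9 (310 to 452) against 244 (191 to 291) in Sham, without overlap. Of 5 genes of mesangium and fibroblasts 1 was called, with a sum of 355 (281 to 390) against 221 (191 to 331). Of 6 podocyte genes 1 was called, with 854 (685 to 1249) against 686 (390 to 1367). With so few genes, 1 call is near the share of all genes. The part of these in the Hk1 result was not tested. In medulla 7 of 9 RM ROIs (88.9, 107 and 131) lay above the highest Sham ROI of 98.7, yet the difference of 0.43 was not called (adjusted p = 0.105), while it was called without HS 3 (0.43), Sham 2 (0.61) or Sham 3 (0.56). Cortex (43.8, 56.7 and 59.9 against 37.6, 49.0 and 55.8) and junction (57.9, 60.7 and 70.1 against 38.9, 50.8 and 63.0) differed by 0.18 and 0.24, neither called. The average was lost without RM 1 (log2 0.40, adjusted p = 0.0575), RM 3 (0.36, 0.101) or Sham 1 (0.21, 0.806).

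The averages of Aldoa and Pgk1 depended on the scaling, and the calls of Hk1 on the treatment of background. With quantile normalisation the RM average was 0.99 for Ndrg1 and 0.40 for Hk1, both called, but 0.04 for Aldoa and 0.04 for Pgk1, neither called (adjusted p = 0.789 and 0.801). In another setting the negative probe was subtracted and any result under 1 was set to 1. The Ndrg1 averages were then 2.51 in RM and 2.24 in RM-HS, both called. Ndrg1 exceeded the probe in 21 of 29 glomerular ROIs, so these sizes depend in part on that floor. The Hk1 averages were 0.73 (adjusted p = 0.0621) and 0.77 (0.0523), neither called. Ranked among the 9271 genes of its own ROI, Aldoa stood at a median percentile of 98.1 at the Sham junction and 98.3 at the RM junction, and Pgk1 at 98.1 in the cortex of both groups. Highly expressed genes as a class stood higher in RM: the 99th percentile of an ROI's values had a median of 183 in Sham cortex and 279 in RM cortex, and of 304 and 414 at the junction.

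**Figure D3:**
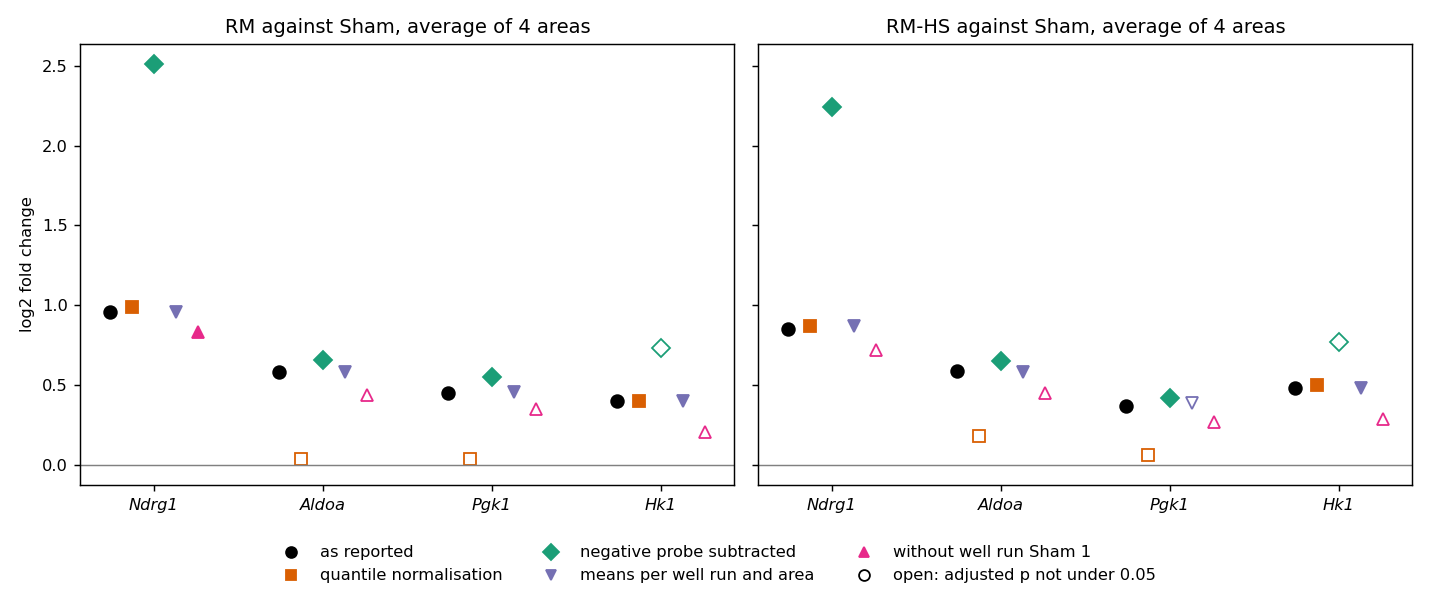
Average log2 fold change against Sham for RM (left) and RM-HS (right) under 5 settings of the analysis, given in the legend, with open symbols where the adjusted p was not under 0.05. The quantile-normalised values of Aldoa and Pgk1 in RM lie at 0.04, next to 0.58 and 0.45 as reported, while those of Ndrg1 and Hk1 lie on the reported values or within 0.03 of them.

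The summed level of proximal tubule markers had higher medians in RM than in Sham in cortex, junction and glomeruli and a lower one in medulla (228 against 254), and its part in the result was not tested. For the 7 of 10 listed markers present in the table the sum had a median of 1533 in RM cortex (777 to 1783) against 764 in Sham cortex (606 to 1913), and of 2389 (1946 to 2767) against 2154 (1445 to 2766) at the junction. The ranges overlapped in both areas, and none of the 7 was called in the RM average. Thick ascending limb markers, which mark the outer medulla, were lower in RM at the junction and in medulla. Of 5 tested, 2 fell in the RM average, where 733 of 8799 genes were called, 664 of them upward. Their sum had a median of 834 in RM medulla against 2579 in Sham. At the junction 3 of 5 fell, and the sum was 450 (369 to 540) against 975 (674 to 1090), without overlap. In cortex (477 against 442) and glomeruli (246 against 237) the medians were higher in RM. RM-HS medians were 514 at the junction and 1328 in medulla, and those of HS 583 and 1446. The part of these in the result was not tested. In the RM average 1 of 2 distal tubule, 1 of 5 macrophage and 2 of 4 endothelium genes rose. So did 1 of 5 mesangium and fibroblast genes, beside 7.55% of all genes. In RM-HS 2 of 5 macrophage genes rose, beside 6.01%. Macrophage sums in medulla had medians of 314 (RM) and 364.5 (RM-HS), against 238 in Sham. Of 5 collecting duct genes 1 fell in both averages. The part of these was not tested. Skeletal muscle markers did not stand out, since none of the 5 tested was called in any injury average and their sum had a median of 247 in RM cortex and 254 in Sham cortex. Of the red blood cell list only Hba-a1 was in the table, with a median of 840 in RM cortex and 622 in Sham cortex.

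In HS kidney none of the 4 genes was called, in the average (0.125% of all genes were called upward) or in cortex (0.0796%), junction (0.216%), glomeruli (3.97%) or medulla (0.0455%). The average log2 differences were 0.49 for Ndrg1 (95% interval 0.02 to 0.95, adjusted p = 0.886), 0.13 for Aldoa (-0.19 to 0.45), 0.11 for Hk1 (-0.18 to 0.41) and 0.02 for Pgk1 (-0.27 to 0.32). In limma only Ndrg1 had an unadjusted p under 0.05 in the average, as did 3 of the 4 genes in cortex, 1 in glomeruli and 0 at the junction and in medulla. Against the Sham run on the same plate alone, the averages were 0.49, 0.14, 0.12 and 0.03 in that order. The plate term already makes that comparison in the main fit, so near-identical values were bound to result.

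The 3 HS runs did not resemble each other. In cortex, Aldoa averaged 662 in HS 3 against 247 in HS 1 and 209 in HS 2, and at the junction 521 against 206 and 202. Pgk1 averaged 351 in HS 3 cortex against 174 and 152, and 301 at the junction against 158 in both others. Ndrg1 averaged 156 in HS 3 cortex against 69.5 and 58.4. These HS 3 values were above every ROI of the other groups in cortex for all 3 genes. Hk1 averaged 51.9, 44.3 and 41.4 in the cortex of HS 3, HS 1 and HS 2, with overlapping ROIs. At the junction it averaged 66.6 in HS 3 (56.9 to 74.5), above every ROI of HS 1 (mean 49.7) and HS 2 (39.0). HS 3 has no medulla ROI. Without it the HS averages were 0.18 for Ndrg1, -0.24 for Aldoa, -0.29 for Pgk1 and -0.02 for Hk1, none called. Its proximal tubule markers were high as well, with a cortex median of 3386 against 935 and 673. Its cortex ROIs held a median of 1320480 reads against 403334 and 341917. The part of either in the result was not tested.

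**Figure D4:**
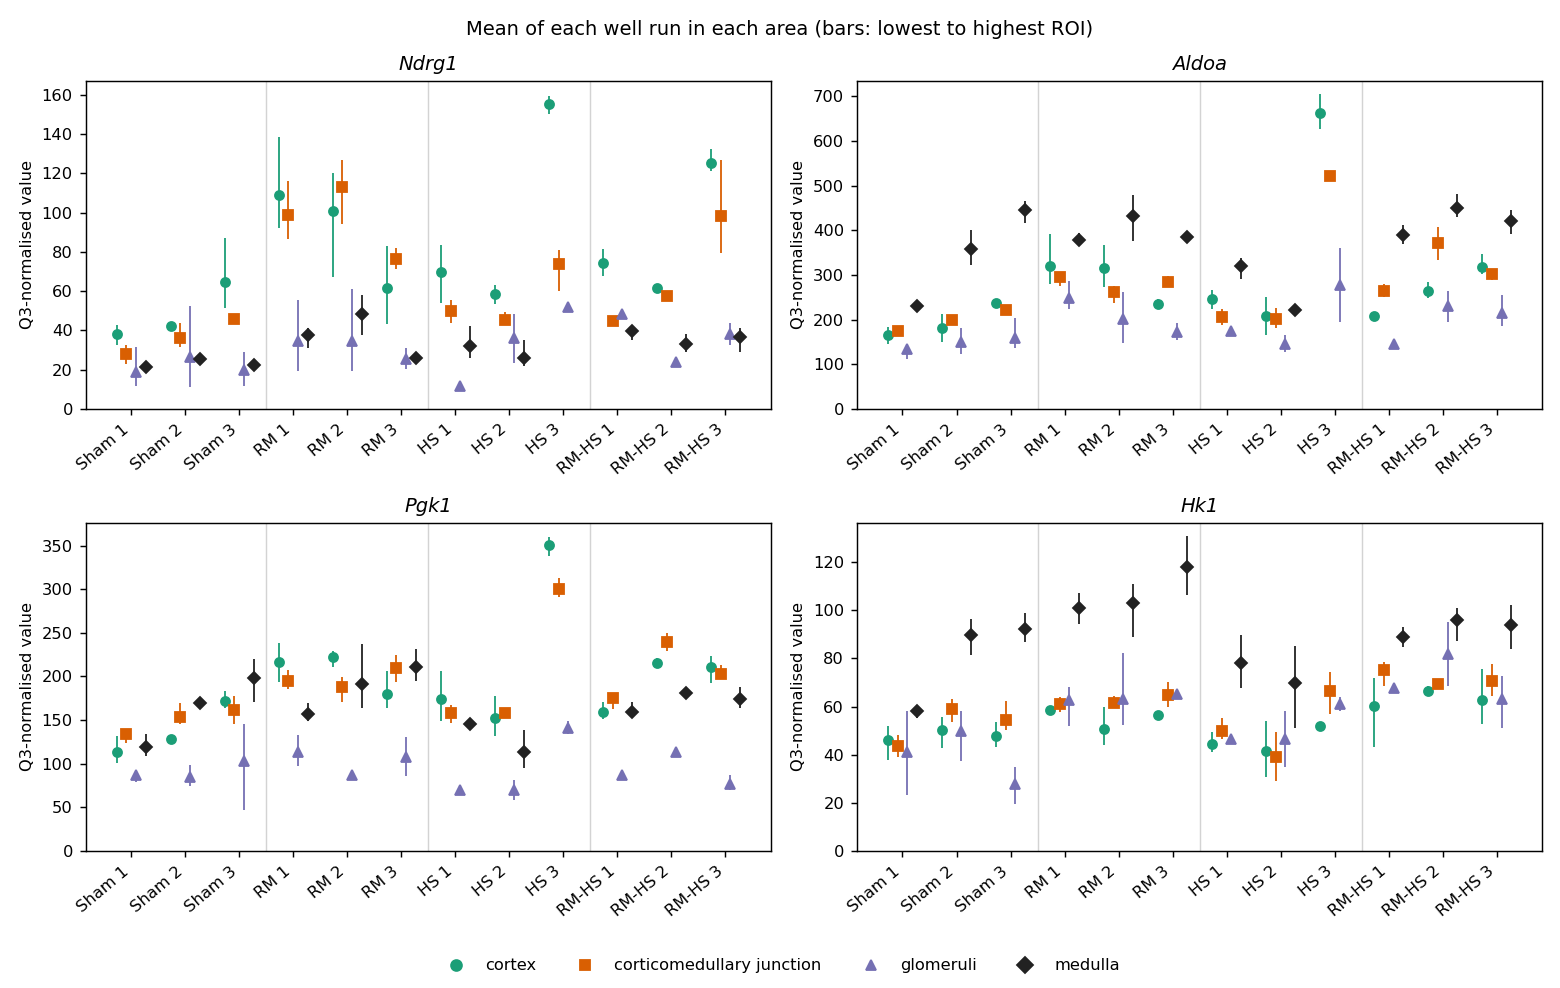
Mean level of each gene in each well run, by area (shape and colour), as Q3-normalised value on a linear axis from 0, with bars from the lowest to the highest ROI of the run (Sham 3 and all HS runs lie on plate E). HS 3 stands apart for Ndrg1 in cortex (156) and for Aldoa and Pgk1 in cortex and at the junction, and its Hk1 mean is higher at the junction (66.6 against 49.7 and 39.0).

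In HS glomeruli, which have 5 ROIs, Ndrg1 read 11.6 in HS 1, 48.5 and 23.3 in HS 2, and 51.7 and 52.3 in HS 3. Aldoa read 175, then 165 and 128, then 194 and 361 in that order. Pgk1 read 69.8, then 58.2 and 81.4, then 149 and 134, and Hk1 46.5, then 58.2 and 34.9, then 58.2 and 64.0. The HS 3 ROIs were the highest 2 for Ndrg1, Aldoa and Pgk1, and every gene overlapped with Sham. In HS medulla, from HS 1 and HS 2 only, Aldoa read 217, 258 and 338 and Pgk1 94.5, 140 and 151. Their log2 differences from Sham were -0.33 each, not called. Fitted without HS 3, which moves the plate term and the estimated spread, they were -0.56 for Aldoa (adjusted p = 0.00852) and -0.52 for Pgk1 (adjusted p = 0.0253), and Pgk1 in glomeruli -0.54 (adjusted p = 0.0172). In cortex the opposite held for the fit without HS 2, which called Aldoa at 0.82 and Pgk1 at 0.64. In glomeruli, Ndrg1 was called without HS 1 (0.93), and Hk1 without HS 2 (0.58), Sham 1 (0.60) or the HS ROI with the lowest Hk1 value (0.59).

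In RM-HS kidney all 4 genes were again called in the average, against 6.01% of all genes called upward. RM-HS, HS and RM are compared with the same Sham ROIs, so similar values are not independent of each other. Ndrg1 stood 1.80-fold above Sham (log2 0.85, SE 0.18, adjusted p = 0.000399), Aldoa higher by 0.59 on the log2 scale (SE 0.13, adjusted p = 0.000438), Hk1 1.39-fold (0.48, SE 0.12, adjusted p = 0.00266) and Pgk1 1.29-fold (0.37, SE 0.12, adjusted p = 0.0354). In single areas, 3 of 4 were called for cortex (3.59% of all genes), 3 for the junction (5.17%), 3 for glomeruli (5.17%) and 0 for medulla (3.6%), where 2 had an unadjusted p under 0.05. Of these 9 single-area calls, only that of Hk1 in glomeruli was kept with run means. With a spread for each area 5 were lost, those of Aldoa in cortex and glomeruli, Pgk1 at the junction, and Ndrg1 and Hk1 in glomeruli. Ndrg1 (0.61) and Aldoa (0.55) were called in medulla in that setting, for which the share of all genes called there is not given here. With quantile normalisation 6 were lost, those of Aldoa and Pgk1 and that of Ndrg1 in glomeruli, while Hk1 was called in cortex (0.51) and at the junction (0.48). For the averages, with that normalisation Ndrg1 (0.87) and Hk1 (0.50) were called, and Aldoa (0.18) and Pgk1 (0.06) were not. On plate C alone the averages were 0.85, 0.59, 0.47 and 0.37 for Ndrg1, Aldoa, Hk1 and Pgk1, all called. As for RM, the plate term makes such near-identical values bound to result.

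Ndrg1 read 60.6, 74.1 and 133 in RM-HS cortex (log2 0.92, adjusted p = 0.0124) and 42.7, 57.3 and 127 at the junction (0.89, 0.0127). The high values came from 1 run: RM-HS 3 averaged 126 in cortex and 98.3 at the junction, against 74.5 and 61.5, and 44.7 and 57.3, in the other 2 runs. Without it the average was 0.66 (adjusted p = 0.0512), cortex 0.62 and junction 0.54, none called, and without Sham 1 the average was 0.72 (adjusted p = 0.128), cortex 0.76 and junction 0.69, none called. Glomeruli read 21.2, 35.7 and 48.5 (log2 0.86, adjusted p = 0.033), a call lost without RM-HS 1 (0.76), RM-HS 3 (0.76), Sham 1 (0.75) or Sham 3 (0.76). It was also lost with quantile normalisation (0.49, adjusted p = 0.129), run means (0.96, 0.155) and a spread for each area (0.81, 0.861). In medulla all 9 RM-HS ROIs (28.7, 38.3 and 42.9) lay above the highest Sham ROI of 26.5. The fitted difference there was 0.73 with an adjusted p of 0.0799, at 1.65 times the negative probe, and it was called without HS 3 (0.0171).

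Aldoa was clearest at the junction, where 250, 296 and 408 in RM-HS did not overlap with 171, 199 and 230 in Sham (log2 0.74, SE 0.18, adjusted p = 0.00142). It read 206, 261 and 346 in cortex (0.56, adjusted p = 0.0415), 145, 201 and 264 in glomeruli (0.58, adjusted p = 0.0379) and 370, 426 and 480 in medulla (0.46, adjusted p = 0.143; called without HS 3, 0.00448). Without Sham 1 the average (0.45, adjusted p = 0.238), cortex (0.44), junction (0.65) and glomeruli (0.50) were not called. The cortex call also went without RM 1, RM 2 or RM 3 (0.56 each), RM-HS 2 (0.55), RM-HS 3 (0.41) or Sham 2 (0.65), and the glomerular call without RM 1 or RM 3 (0.58 each), RM-HS 2 (0.48), RM-HS 3 (0.51) or Sham 3 (0.51).

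Pgk1 read 151, 210 and 224 in RM-HS cortex (log2 0.61, adjusted p = 0.00845) and 163, 198 and 249 at the junction (0.54, adjusted p = 0.0216), with 6 of 9 and 7 of 8 ROIs above the Sham range. Glomeruli (69.8, 87.2 and 116) and medulla (153, 171 and 188) overlapped with Sham and were not called. Its average was the least stable: it was lost without RM 2 (0.37), RM-HS 2 (0.27), RM-HS 3 (0.40), Sham 1 (0.27) or Sham 2 (0.48). The cortex and junction calls were lost without RM-HS 2 (0.53 and 0.44), RM-HS 3 (0.55 and 0.54) or Sham 1 (0.48 and 0.47).

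Hk1 was again called in glomeruli, at 50.9, 68.3 and 95.2 against 19.4, 37.4 and 58.2 in Sham, with 5 of 6 ROIs above the Sham range (log2 0.86, SE 0.17, adjusted p = 0.000304). That call was kept without any single run and lost with a spread for each area (0.66, adjusted p = 0.67). Of the 4 endothelium genes 3 were called upward in RM-HS glomeruli, beside 5.17% of all genes, with a summed median of 347 (254 to 461) against 244 in Sham. None of the 5 mesangium and fibroblast genes was called there, at 287 against 221, nor any podocyte gene, at 835 against 686. The part of these in the Hk1 result was not tested. At the junction all 8 ROIs (64.5, 70.3 and 78.7) exceeded the highest Sham ROI of 63.0. The fitted difference there was 0.45 with an adjusted p of 0.0802, called without HS 2 or HS 3 (0.45 each), Sham 2 (0.63) or Sham 3 (0.51). Cortex (43.3, 65.7 and 75.6) and medulla (83.8, 92.9 and 102) were not called. The average was lost without Sham 1 (0.29, adjusted p = 0.671).

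None of the 4 genes was called between RM-HS and RM. Log2 differences in the average were -0.11 for Ndrg1 (95% interval -0.44 to 0.22), 0.01 for Aldoa (-0.22 to 0.24), -0.08 for Pgk1 (-0.30 to 0.13) and 0.08 for Hk1 (-0.13 to 0.29). The share of all genes called was 0.227% in the average, 0% for cortex (98 genes in limma had an unadjusted p under 0.05), 0.409% for the junction, 1.9% for glomeruli and 0.591% for medulla. The single unadjusted p under 0.05 among the 4 was that of Ndrg1 at the junction, lower in RM-HS by -0.59 (SE 0.24, adjusted p = 0.831). None was called between RM-HS and HS either, where plates and groups nearly coincide. Those averages ran from 0.35 for Pgk1 to 0.45 for Aldoa (95% interval 0.04 to 0.86), and the share of all genes called was 1.09% in the average, 0.466% (cortex), 1.31% (junction), 2.93% (glomeruli) and 1.99% (medulla). Of the 4, limma gave unadjusted p-values under 0.05 to 1 in the average, 2 at the junction and 2 in medulla, and to 0 in cortex and glomeruli. The absence of calls changed when HS 3 was left out. All 4 were then called in the average, at 0.82 for Aldoa, 0.67 for Ndrg1, 0.66 for Pgk1 and 0.49 for Hk1. The fit without HS 3 called more genes in general. Against Sham it called 658 in HS, 2231 in RM and 1557 in RM-HS, beside 15, 733 and 603 in the main fit. Its share of all genes called between RM-HS and HS is not given here. In medulla Aldoa, at 0.79 (adjusted p = 0.0684), was called without HS 1 (0.92), HS 3 (1.02) or Sham 2 (0.92). The interaction, which asks whether RM-HS differs from the sum of both single injuries, was called for none (0.125% of all genes). It was -0.60 for Ndrg1 (SE 0.29, unadjusted p = 0.0395, adjusted p = 0.926).

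Whether an effect differed between the areas was asked with an F test. For RM and RM-HS none of the 4 was called (9.74% and 7.57% of all genes were). The lowest adjusted p was 0.095 for Hk1 in RM and 0.0787 for Hk1 in RM-HS, and an unadjusted p under 0.05 was given to 2 of the 4 in each. Hk1 was called for RM without HS 2 (0.049), Sham 1 (0.0285) or Sham 2 (0.0332), and for RM-HS without HS 2 (0.0377), Sham 1 (0.00623) or Sham 2 (0.0363). The larger differences of Hk1 in glomeruli and of Ndrg1 at the junction are therefore not shown to be particular to those areas. For HS, 2 of 4 were called against 13.6% of all genes, Pgk1 (adjusted p = 0.00968) and Aldoa (adjusted p = 0.017), with cortex high and medulla low. The high cortex values came from HS 3, which has no medulla ROI. Without HS 3 the adjusted p was 0.0311 for Pgk1 and 0.0833 for Aldoa, and without Sham 2 it was 0.0589 and 0.107. On plate E alone it was 0.611 and 0.442.

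Among the glycolysis genes, some steps rose and others did not. Of 32 genes listed, 17 were in the table and 16 tested, which leaves Hk2, Gapdh, Ldha and others not analysed here. In the RM average 7 of the 16 rose and none fell, with a median of 0.25 against -0.06 over all genes. The 7 include Aldoa, Pgk1 and Hk1. Of the other 13, 4 rose, beside 7.55% of all genes. Among all 7 were the liver-type pyruvate kinase Pklr (log2 0.88, SE 0.16, adjusted p = 6.71e-06), the phosphoglycerate mutase Pgam1 (0.73, SE 0.12), Aldoa (0.58) and Pfkfb3, which makes the activator of phosphofructokinase (0.67, SE 0.18). The RM-HS average also had 7 rises and no fall (median 0.16 against -0.02), among them Pfkfb3 (1.09, SE 0.18, adjusted p = 7.94e-07), Aldoa (0.59), Pgam1 (0.54) and Pklr (0.50). Again 4 of the 13 others rose, beside 6.01% of all genes. Without Sham 1 the counts were 2 rises in RM and 2 in RM-HS. Without HS 3, as on plate C alone, RM had 8 rises and 4 falls. Of all 8799 genes, 2231 were called in RM without HS 3 and 2546 on plate C alone, against 733 in the main fit. RM-HS had 4 rises without RM-HS 2, without RM-HS 3 or without Sham 2.

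At the mutase, enolase, pyruvate kinase and Pfkfb steps, the isoforms with the highest values were Pgam1, Eno1, Pklr and Pfkfb3, an order that also depends on the probes. Eno1, the enolase of most tissues, stood at -0.29 in RM (adjusted p = 0.174) and -0.15 in RM-HS. With quantile normalisation the RM count became 5 rises and 2 falls and the RM-HS count 4 rises. In the HS average limma gave no call among the 16, and the 2 lowest p-values were those of Pfkfb4 (-0.30, SE 0.16) and Slc2a1 (0.30, SE 0.17). In HS glomeruli 1 of the 16 rose, beside 3.97% of all genes. In RM glomeruli 3 rose, beside 10.1% of all genes called upward, and 2 fell. At the RM junction, 5 of the 16 rose, beside 4.88% of all genes. Picked out after their values were seen, Pklr (log2 2.42), the isomerase gene Gpi1 (1.80) and Pgam1 (1.15) had larger differences there than Aldoa (0.61) and Pgk1 (0.50).

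**Figure D5:**
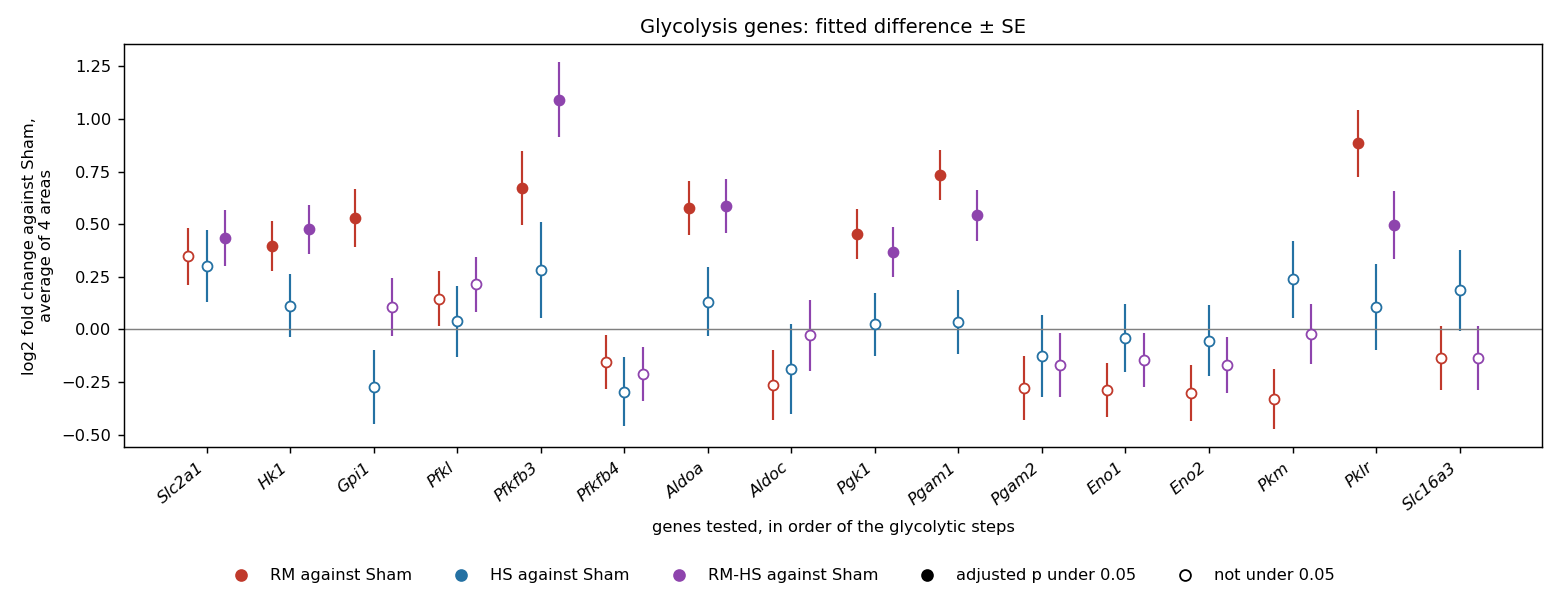
Average log2 fold change against Sham for the 16 glycolysis genes tested, in the order of the pathway from glucose uptake (left) to lactate export (right), with the SE and filled points where the adjusted p was under 0.05. Pgam1, Pklr, Aldoa, Pgk1, Hk1 and Pfkfb3 are filled in RM and in RM-HS, while the enolases, Pkm and Slc16a3 are open throughout.

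Few other HIF targets were called. Of 18 tested outside glycolysis, 2 rose in the RM average and none fell (median 0.07 against -0.06 over all genes): Ndrg1 and the transcriptional repressor Bhlhe40 (0.89, SE 0.15, adjusted p = 8.45e-07). Without Ndrg1 that is 1 of 17, a share near the 7.55% of all genes called upward. In RM-HS 3 rose and none fell (median 0.20 against -0.02): Bhlhe40 (1.07, SE 0.15), Ndrg1 and the stress-induced mTOR inhibitor Ddit4 (0.66, SE 0.16, adjusted p = 0.0013), or 2 of 17 without Ndrg1 beside 6.01% of all genes. In the HS average none was called, and the lowest p-values were those of Ndrg1 (0.49) and Ddit4 (0.33, adjusted p = 0.978). In HS glomeruli 2 of the 18 fell. None of the 18 fell in any of the 3 averages. Of the 6 tested genes of the HIF pathway itself, none was called in the RM average, and 1 rose in RM cortex and 1 in RM glomeruli. The 2 lowest p-values in that average were those of Epas1, the HIF-2 alpha subunit (0.58, SE 0.20, adjusted p = 0.0546), and the prolyl hydroxylase Egln2 (0.22). In the RM-HS average both were called, Epas1 at 0.65 (adjusted p = 0.0292) and Egln2 at 0.48 (adjusted p = 0.0023), or 2 of 6 beside 6.01% of all genes. In the HS average none was called, with Epas1 at 0.47 and the prolyl hydroxylase Egln1 at -0.22, while in HS glomeruli 1 of the 6 fell. Hif1a is not analysed here.

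Gluconeogenesis runs opposite to glycolysis and takes place in the proximal tubule. None of its 6 tested genes was called in any of the 3 averages. The lowest p-values in RM were those of Pck1, the rate-limiting enzyme (-0.72, SE 0.26, adjusted p = 0.0648), and G6pc (0.49, adjusted p = 0.124). In HS they were those of G6pc (0.82, SE 0.26, adjusted p = 0.303) and Pck2 (-0.24), and in RM-HS those of Pcx (0.37) and Fbp1 (0.26).

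The 4 genes did not share 1 pattern. Over the 16 means of group and area, Pearson's r was 0.75 for Aldoa with Pgk1, 0.73 for Aldoa with Hk1 and 0.74 for Ndrg1 with Pgk1, but -0.10 for Ndrg1 with Hk1. Within groups, values were taken as deviations of 131 ROIs from their group and area mean. Aldoa and Pgk1 moved together most (r = 0.78, or 0.62 over the 123 ROIs without HS 3). The lowest values were those of Ndrg1 with Hk1 (0.20, or 0.09 without HS 3) and of Pgk1 with Hk1 (0.25, or 0.05). ROIs share runs, plates and depth, so these values are descriptions.

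The genes whose 16 means were most like those of a member were Ndel1 (0.93), Ube2h (0.92) and Aldh7a1 (0.92) for Ndrg1, and Mgrn1 (0.94), Ostf1 (0.91) and C1qc (0.91) for Aldoa. For Pgk1 they were Pebp1, the mitochondrial phosphate carrier Slc25a3 and the ATP synthase subunit gene Atp5k (each between 0.94 and 0.95), and for Hk1 Trip10 (0.92), Midn (0.91) and Spp1 (0.90). The likeness of Pgk1 held within groups too, with r = 0.75 for Pebp1 and 0.68 for Slc25a3, whereas that of Hk1 was 0.17 for Trip10 and 0.12 for Midn.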

How the data were processed

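RNA was read with spatial profiling by barcoded probes in 132 ROIs of rat kidney. The deposited table holds signal per gene after the authors' upper-quartile scaling, as the values show: every ROI's upper quartile was 58.16. The steps before that are not given in the sources used here. Groups and areas came from the labels, and plates and wells from the column names. Values were taken as log2(value + 1), so fold changes are on that scale and understate those of low genes. Genes over 2 times the negative probe in 10% or more of the ROIs were tested, 8799 in all, and 472 were left out. limma 3.58.1 in R 4.3.3 (statmod 1.5.0) fitted the 16 groups of injury and area with plate as a term and a random block for well runs (correlation 0.132) over 131 ROIs, with Benjamini-Hochberg adjustment over all genes tested. The script was tested on simulated data. ROIs are not tied to animals, so p-values over ROIs are too small. No ROI had values identical to another's.

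The 4 genes, the gene lists and the tests were chosen with earlier results of these data known, among them the rises in the RM average, which therefore add no independent support. Named list genes were those called in an injury average, up to 4 rises and 3 falls with the largest differences per list. With no call, the 2 with the lowest p were named, and for glycolysis also the isoform with the highest value at each step. Genes most like a member were the 3 with the highest correlation over the 16 means. The percentile ranks were added after seeing the data. An item of the gene lists is not reported here, so list counts, medians and sums leave it out.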

Additional observations from a re-analysis of the deposited data

Results flagged for a closer look

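Among 64 groups of ROIs tested, 3 held an ROI far from the others, and chance gives about 1 in 20 groups. Ndrg1 reached 86.88 in 1 Sham cortex ROI of run Sham 3, against 55.39 in the next highest. In Sham glomeruli Ndrg1 reached 52.34 in 1 ROI of run Sham 2, against 31.72 in the next. Aldoa reached 360.6 in 1 HS glomerular ROI of run HS 3, against 193.9 in the next.

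The effect of HS differed between the 4 areas for Aldoa (limma F test, adjusted p = 0.017) and Pgk1 (adjusted p = 0.00968). For both genes the cortex differences were positive and the medulla differences negative, and HS 3, the run with the high cortex values, has no medulla ROI.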

How the results depend on the processing

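Over 132 results of the 4 genes and 29 settings, 2999 values were recomputed. Of these, 2750 kept their side of the threshold, 145 lost their call, 101 gained one and 3 reversed. Reversed means that the sign changed and that the main or the other fit called the value. Changes of sign among values called in neither fit are counted in the 2750. With quantile normalisation the averages were 0.04 for Aldoa and 0.04 for Pgk1 in RM, and 0.18 and 0.06 in RM-HS, none called. The reversed values, all with quantile normalisation, were -0.04 for Aldoa in RM cortex, and -0.33 for Pgk1 and -0.52 for Aldoa at the Sham junction against cortex. With the negative probe subtracted Hk1 stood at 0.73 in RM and 0.77 in RM-HS, not called. Without the plate term Ndrg1 in HS was called at 0.67, and Pgk1 in RM-HS was not, at 0.27. Pgk1 in RM-HS was also not called with means per well run (0.39) or with the plate A ROI (0.37). The causes were not tested.

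Leaving out 1 well run at a time gave ranges for RM of 0.83 to 1.14 (Ndrg1), 0.44 to 0.72 (Aldoa), 0.35 to 0.56 (Pgk1) and 0.21 to 0.59 (Hk1). For RM-HS they were 0.66 to 0.99, 0.45 to 0.72, 0.27 to 0.48 and 0.29 to 0.67, and for HS 0.18 to 0.63, -0.24 to 0.40, -0.29 to 0.24 and -0.02 to 0.23. Genes called in the average ranged from 294 (without Sham 1) to 2231 (without HS 3) in RM, 193 (without Sham 1) to 1557 (without HS 3) in RM-HS and 12 (without RM 3) to 658 (without HS 3) in HS.

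Of all genes, HS called 15. It called 27 with quantile normalisation, 320 without the plate term, 451 without the run block, 7 with run means, 64 with the negative probe subtracted and 0 in limma on plate E alone, where 74 genes had an unadjusted p under 0.05. RM called 733, against 1529 with quantile normalisation, 2546 on plate C alone and 2964 without the block. RM-HS called 603, against 1344, 1789 and 1985 in that order. Without Sham 3 no plate holds both HS and Sham, so no HS value was given. A count test on reads was not run, because the deposited values are scaled. No paired analysis was possible because replicate numbers follow accession order and pair no samples. Low reads in glomeruli and levels near the negative probe limit what can be said of Ndrg1, most in glomeruli and medulla.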

Other observations

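The RM glomerular ROI on plate A, which is in the ranges of levels but was left out of the fit, read 45.23 for Ndrg1, 135.7 for Aldoa, 84.0 for Pgk1 and 51.7 for Hk1, with the negative probe at 16.87.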
